A study of Mus musculus with 8 samples.

Results

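The serpin family was followed on 8 arrays from mouse embryonic fibroblasts (MEFs). Its members were taken as all probe sets annotated with a single gene symbol that begins with Serpin, a clade letter from a to i and a digit, leaving out the complement inhibitor gene Serping1, with the probe set of highest mean kept for each symbol. This gave 53 genes of the 22180 measured with a single symbol, of which 20 belong to clade a, 25 to clade b, 1 to clade e and 7 to clades c, d, f, h and i together. The rule itself used symbols and mean signals and no difference between samples, but it was set with earlier results of these data known. Clade e was represented by Serpine3 alone among the genes analysed here. The cells came from STING-/- MEFs, described as primary MEF cells in the labels, and carried STING R284S, STING N154S (named in the design text as a mutant of the inflammatory disease SAVI), hSTING (given there as wild-type STING) or the empty pBabe vector. Each construct was measured after transfection of double-stranded DNA (dsDNA) with a lipid reagent for 9 h and as a control, with 1 array for each construct and treatment. The endogenous STING gene was thus disrupted in every group. The labels do not say whether control cells received the reagent without DNA, nor how many cell populations were made per construct, so construct and population cannot be told apart.

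Serpins are a family of proteins with a shared fold, most of which inhibit proteases. The target protease cuts an exposed reactive loop, the serpin changes shape, and the enzyme is left trapped and inactive. Clade a holds secreted plasma proteins such as antitrypsin and antichymotrypsin relatives, made largely by the liver, while clade b holds serpins that lack a classical signal peptide and act mostly inside cells, among them inhibitors of granzymes. Clades c, d and f include inhibitors of clotting and fibrinolytic enzymes, Serpinh1 is a collagen chaperone of the endoplasmic reticulum with no protease target, and Serpini1 encodes neuroserpin, an inhibitor of tissue plasminogen activator.

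The mouse Serpinb9 genes lie in a cluster on chromosome 13, which holds 15 of the 53 members, with Serpinb1b between Serpinb9b and Serpinb9c. The stretches in front of 5 of their starts are shown because these genes differed between constructs or with dsDNA and fall into sequence groups. Sequences are from RefSeq, build GRCm38.p6, given 5′ to 3′ on the plus strand. In front of Serpinb9e (chr13:33249373-33249607), Serpinb9f (chr13:33323827-33324061) and Serpinb9g (chr13:33484551-33484785), the same stretch of 235 bases was found, with capitals at the 11 positions where the 3 are not all alike.
Serpinb9e: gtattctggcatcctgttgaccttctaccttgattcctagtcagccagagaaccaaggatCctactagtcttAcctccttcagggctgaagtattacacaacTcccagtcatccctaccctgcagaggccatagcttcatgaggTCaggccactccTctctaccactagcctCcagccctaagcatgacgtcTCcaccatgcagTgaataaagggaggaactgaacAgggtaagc
Serpinb9f: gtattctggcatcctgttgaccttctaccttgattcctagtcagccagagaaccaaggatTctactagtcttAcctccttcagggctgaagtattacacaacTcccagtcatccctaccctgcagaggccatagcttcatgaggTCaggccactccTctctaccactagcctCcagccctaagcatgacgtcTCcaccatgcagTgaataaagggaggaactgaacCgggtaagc
Serpinb9g: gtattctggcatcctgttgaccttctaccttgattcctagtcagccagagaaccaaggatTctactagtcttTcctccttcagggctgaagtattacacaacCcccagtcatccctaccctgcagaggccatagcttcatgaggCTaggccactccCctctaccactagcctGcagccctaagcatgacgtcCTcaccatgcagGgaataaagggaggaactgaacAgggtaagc
Serpinb9e and Serpinb9f were identical at 233 of these bases (99.1%), and Serpinb9g was identical to each of them at 225 (95.7%). Serpinb9c and Serpinb9d, which lie next to Serpinb9e in the cluster, were not compared, so they may hold the stretch too.

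Serpinb9 and Serpinb9b shared another stretch. The best ungapped match between their 250 bases before the start was 43 bases long with 38 identical (88.4%), against 20 bases for Serpinb9 with Serpinb9e. It lay at chr13:33004474-33004516 for Serpinb9 and chr13:33027343-33027385 for Serpinb9b, and is shown because it holds a match to the interferon-stimulated response element (ISRE, searched on both strands as GAAA, any 2 bases and GAAA) in Serpinb9. Capitals mark that match, read on the opposite strand, and the bases aligned with it in Serpinb9b.
Serpinb9: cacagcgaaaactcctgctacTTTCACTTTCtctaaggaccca
Serpinb9b: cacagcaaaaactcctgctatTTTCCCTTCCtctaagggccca
The match lay at positions -46 to -37 from the Serpinb9 start. Over windows of 300 bases (250 before the start and 50 after it), 3.44% of all 32851 listed promoters held the ISRE letters, and 3 of 55 promoters of the 47 serpins found in the table did, those of Serpina3a, Serpinb6a and Serpinb9. The element TTCNNNGAA was found in 8 of the 55 (14.5%), against 8.3% of all promoters, and TGANTCA, the AP-1 letters, in 11 (20%), against 7.81%. The letters TATAAA were found in 15 (27.3%), against 13.6%, and the kappaB letters in 2 (3.64%), against 8.46%. Serpinb2 held TTCNNNGAA, TGANTCA and TATAAA. These counts are not of independent promoters. Some genes have more than 1 in the table, and the AP-1 matches include those of the near-identical copies Serpina1a to Serpina1d. A match describes letters in the window and is no evidence of binding.

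Most serpins gave dim signals in these fibroblasts. All values are the authors' log2 signals, and the median over all genes lay between 4.42 and 4.47 on the 8 arrays. The mean over the arrays reached the median of all genes, 4.45, in 12 of 53 serpins (22.6%), of which 8 were in clade b, 3 in clades f, h and i, and 1, Serpina3n, in clade a. The other 41 read between 1.25 and 4.51, and 1 of them reached its array's median on any array. The range over the 8 arrays was 1 or more in 11 serpins (20.8%), against 9.9% of all genes. In clade b this held for 8 of 25 members, and in clade a for 2 of 20. Dim genes may still be expressed, and signals of different genes are not compared with each other.

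The cells read as fibroblasts on the markers listed. The 10 fibroblast markers had means of 7.34 to 12.69, while 0 of 7 hepatocyte and 0 of 5 trophoblast markers reached the median. Of the macrophage, cytotoxic lymphocyte and endothelial markers, 3 of 8, 1 of 7 and 2 of 8 did. The macrophage markers that did were Cd68, Cx3cr1 and Csf1r, with means of 6.09, 5.085 and 4.54. The lymphocyte marker was Nkg7 (4.68), and the endothelial ones were Kdr (4.70) and Cdh5 (4.53). Below the median lay, among others, Ptprc at 2.48 to 2.67 and Pecam1 at 3.68 to 4.07. Of the keratinocyte and epithelial markers 3 of 7 did, among them involucrin (Ivl), which rose by 1.36 in R284S and 2.28 in N154S against pBabe cells. The summed fibroblast marker signal, on the log2 scale, ranged from 14.06 to 14.46. Among the fibroblast markers Col1a1, Col3a1 and Pdgfrb fell in both mutant lines against pBabe cells. The part of these marker differences in the serpin results was not tested.

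**Figure D1:**
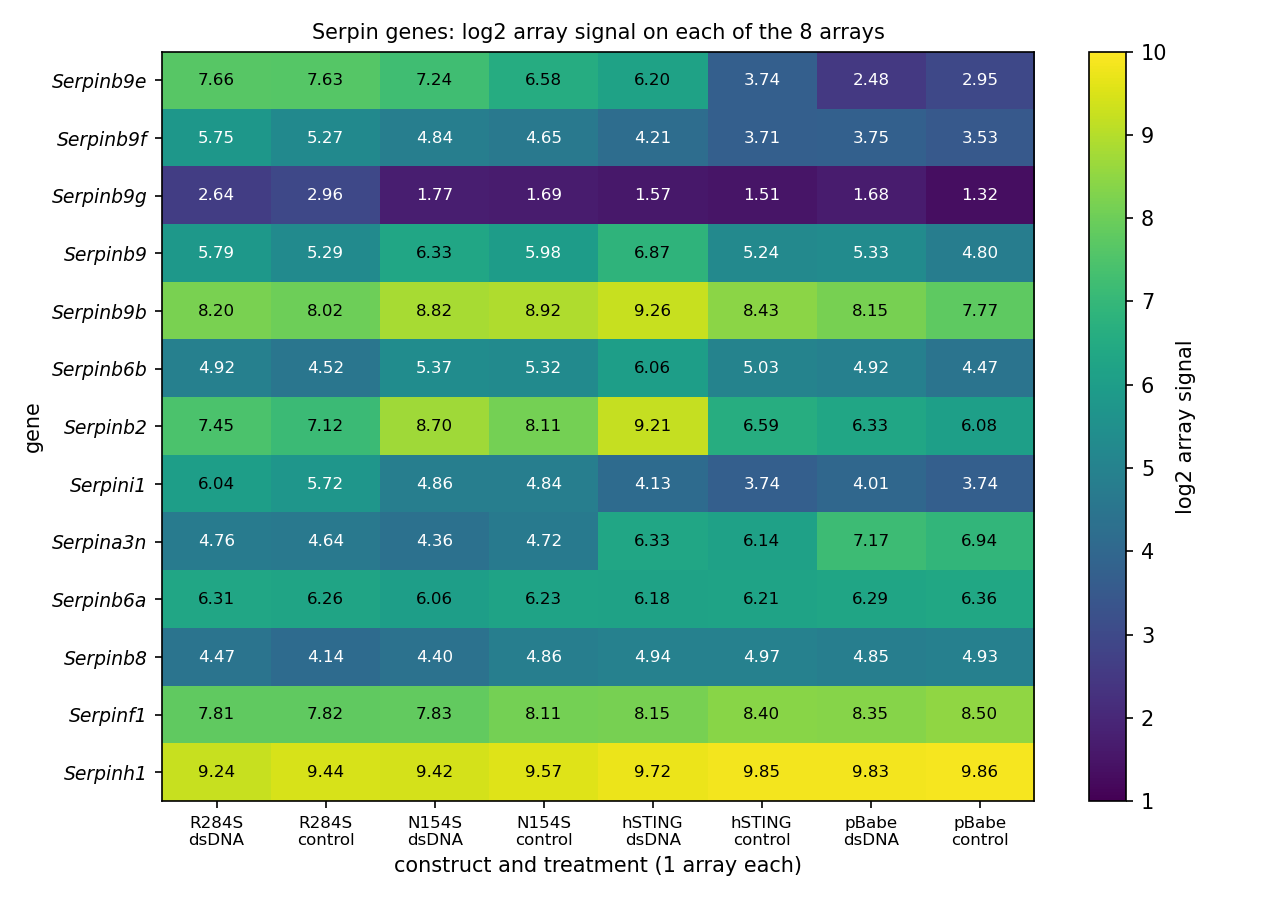
Log2 array signal of 13 serpin genes (rows) on each of the 8 arrays (columns, construct and treatment), with each value printed in its cell and shown by colour. Serpinb9e reads 7.66 and 7.63 in R284S cells and 2.48 and 2.95 in pBabe cells, while Serpina3n runs the other way, at 4.76 and 4.64 against 7.17 and 6.94.

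The first question was how the constructs differed from the empty vector. In the limma fit of construct and treatment over all 8 arrays, which compares the 2 arrays of each construct, 4 serpins rose and 1 fell in R284S against pBabe cells, 3 rose and 1 fell in N154S against pBabe cells, and 0 passed in hSTING against pBabe cells. Of all genes, 1.02% rose and 1.02% fell in R284S, 0.708% rose and 0.609% fell in N154S, and 0.0992% rose and 0% fell in hSTING cells. The genes that rose in R284S cells were Serpinb9e, Serpinb9f, Serpinb9g (below the median on every array) and Serpini1, the first, second and last of them also rose in N154S cells, and the gene that fell in both lines was Serpina3n. With 1 array per group, the error term came from how unequally the constructs differed between treatments, plus array noise, so the p-values say nothing of how separate cultures would vary. In bulk RNA, a larger share of cells expressing a gene and more RNA per cell cannot be told apart. At an unadjusted p under 0.05 there were 13, 13 and 8 serpins (24.5%, 24.5% and 15.1%) for R284S, N154S and hSTING, and 14.3%, 14.9% and 9.28% of all genes. The median difference over all 53 serpins was 0.03, 0.05 and 0.06 for the 3 constructs, against 0.01, 0.01 and -0.02 over all genes.

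In control cells alone, with a single array on each side and hence no test, R284S cells had 4 serpins at least 2-fold above pBabe cells and 1 as far below, counting a gene when its brighter signal reached that array's median. Over all genes 1.15% were higher and 0.721% lower. In N154S control cells 6 were higher and 1 lower, against 1.01% and 0.406% of all genes. In hSTING control cells 0 were higher and 0 lower, against 0.415% and 0.018%. With dsDNA on both sides, 4 serpins were higher and 1 lower in R284S than in pBabe cells (1.13% and 0.848% of all genes), 4 were higher and 1 lower in N154S (1.57% and 0.884%), and 5 were higher and 0 lower in hSTING (2.16% and 0.721%). The 5 in hSTING cells were Serpinb2, Serpinb6b, Serpinb9, Serpinb9b and Serpinb9e. By clade, the median difference of clade b from pBabe was 0.14 in R284S, 0.11 in N154S and 0.04 in hSTING control cells, and that of clade a was -0.08, -0.01 and -0.04. Most members of each clade therefore read near 0, but most were dim, where small changes cannot be seen, and the counts came from a few genes. Of the 25 clade b members, 5 were 2-fold or more higher in N154S, 3 in R284S and 0 in hSTING control cells. Over all genes 1.01%, 1.15% and 0.415% were. A mean at or above the median of all genes was found in 8 of the 25. That mean includes the arrays where a gene is high. Serpine3 of clade e differed by 0.01, -0.04 and 0.01.

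**Figure D2:**
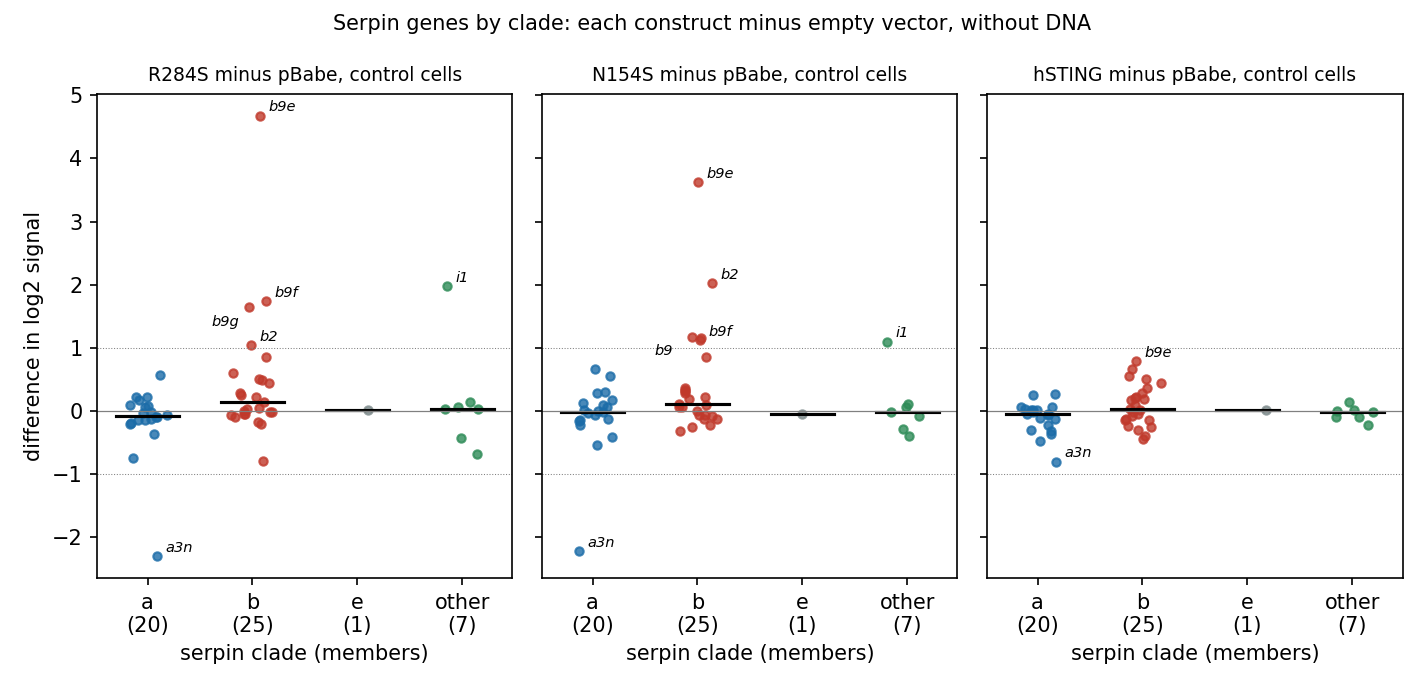
Difference in log2 signal between each construct and pBabe in control cells (vertical axis), for the serpin genes of clades a, b, e and the rest (horizontal axis, number of members in brackets). Points are genes, black bars are clade medians, dotted lines mark a 2-fold difference, and some of the genes far from 0 are named without the prefix Serpin. Serpinb9e stands highest at 4.68 in R284S, 3.63 in N154S and 0.79 in hSTING (where both its signals lie below the array medians), and Serpina3n lowest at -2.30, -2.22 and -0.80.

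Among the clade b genes of chromosome 13, Serpinb9e, a close relative of Serpinb9, gave the largest differences. It read 7.66 with dsDNA and 7.63 in control cells carrying R284S, 7.24 and 6.58 with N154S, 6.20 and 3.74 with hSTING, and 2.48 and 2.95 with pBabe. The 4 mutant arrays lay above the rest, and hSTING cells approached them with dsDNA. In the fit it rose by 4.93 (SE 0.60, adjusted p = 0.0135) in R284S and by 4.20 (SE 0.60, adjusted p = 0.0289) in N154S against pBabe cells. With the array medians in place of the dim signals, these differences were at least 3.21 and 2.48. Without the N154S pair of arrays the R284S difference no longer passed (adjusted p = 0.0575). With trend and robust variances neither passed, at adjusted p = 0.0915 for R284S and 0.123 for N154S. In hSTING cells it was 2.25 higher than in pBabe cells (SE 0.60, adjusted p = 0.445).

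Serpinb9f, which shares the upstream stretch shown above, had a narrower range. Its signals were 5.75 with dsDNA and 5.27 in control cells for R284S, 4.84 and 4.65 for N154S, 4.21 and 3.71 for hSTING, and 3.75 and 3.53 for pBabe. The arrays of R284S lay above those of N154S, and these above those of the other 2 constructs. It rose by 1.87 (SE 0.14, adjusted p = 0.00201) in R284S and by 1.10 (SE 0.14, adjusted p = 0.018) in N154S against pBabe, with lower bounds of 1.07 and 0.31. In hSTING cells the difference was 0.32 (SE 0.14, adjusted p = 0.54).

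Serpinb9g, the remaining gene of the 3 shown with that stretch, was dim throughout. It read 2.64 and 2.96 in R284S, 1.77 and 1.69 in N154S, 1.57 and 1.51 in hSTING, and 1.68 and 1.32 in pBabe cells with dsDNA and without it. Both R284S values were above the other 6, and each lay below its array's median. It rose by 1.3 (SE 0.17, adjusted p = 0.0166) against pBabe and by 1.26 (SE 0.17, adjusted p = 0.0299) against hSTING cells. With all its signals below the median, no lower bound can be set for these differences. Both calls were lost without the N154S pair of arrays (adjusted p = 0.0642 and 0.109). Serpinb9e, Serpinb9f and Serpinb9g are near copies of each other in their upstream sequence, and the probe sequences were not used here, so a probe set of these genes may have picked up RNA of a neighbour, and their levels are uncertain.

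Other members at that locus behaved differently. The granzyme B inhibitor gene Serpinb9 read 5.79 with dsDNA and 5.29 in control cells for R284S, 6.33 and 5.98 for N154S, 6.87 and 5.24 for hSTING, and 5.33 and 4.80 for pBabe. Here the highest array was hSTING with dsDNA, followed by the 2 of N154S, and the R284S and pBabe arrays overlapped. Its difference from pBabe was 0.48 (SE 0.29, adjusted p = 0.541) in R284S, 1.09 (SE 0.29, adjusted p = 0.156) in N154S and 0.99 (SE 0.29, adjusted p = 0.478) in hSTING cells. The 95% confidence intervals, not adjusted for the number of genes, were -0.22 to 1.17, 0.39 to 1.79 and 0.29 to 1.69. Without the hSTING pair of arrays the N154S difference passed (SE 0.12, adjusted p = 0.0108).

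Serpinb9b, whose upstream sequence resembles that of Serpinb9, also read highest in hSTING cells with dsDNA, with the N154S arrays next, over a smaller range. Its signals were 8.20 and 8.02 in R284S, 8.82 and 8.92 in N154S, 9.26 and 8.43 in hSTING, and 8.15 and 7.77 in pBabe cells with dsDNA and without it. The N154S arrays lay above the R284S and pBabe arrays, which overlapped. The N154S difference from pBabe was 0.91 (SE 0.21, adjusted p = 0.109), and it passed without the hSTING pair of arrays (adjusted p = 0.0398). Another probe set of this gene read 3.05 to 3.71, below every array median. Serpinb6b, a relative of the cathepsin G inhibitor gene Serpinb6a, read 4.92 and 4.52 in R284S, 5.37 and 5.32 in N154S, 6.06 and 5.03 in hSTING, and 4.92 and 4.47 in pBabe cells. Its hSTING value with dsDNA stood above the rest, and R284S and pBabe arrays were nearly equal, with a difference of 0.03 (95% interval -0.49 to 0.54).

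Serpinb2 encodes the plasminogen activator inhibitor PAI-2, which blocks urokinase, and lies on chromosome 1. It read 7.45 with dsDNA and 7.12 in control cells for R284S, 8.70 and 8.11 for N154S, 9.21 and 6.59 for hSTING, and 6.33 and 6.08 for pBabe. The hSTING array with dsDNA was the highest, and each array of a STING construct lay above the pBabe arrays. Differences from pBabe were 1.08 in R284S (SE 0.53, adjusted p = 0.425), 2.20 in N154S (SE 0.53, adjusted p = 0.119) and 1.70 in hSTING (SE 0.53, adjusted p = 0.493). Without the hSTING pair of arrays the SE fell to 0.13, and Serpinb2 then passed in R284S (adjusted p = 0.0167) and in N154S (adjusted p = 0.00215). Its gap between dsDNA and control was 0.33, 0.59, 2.62 and 0.25 in R284S, N154S, hSTING and pBabe cells.

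**Figure D3:**
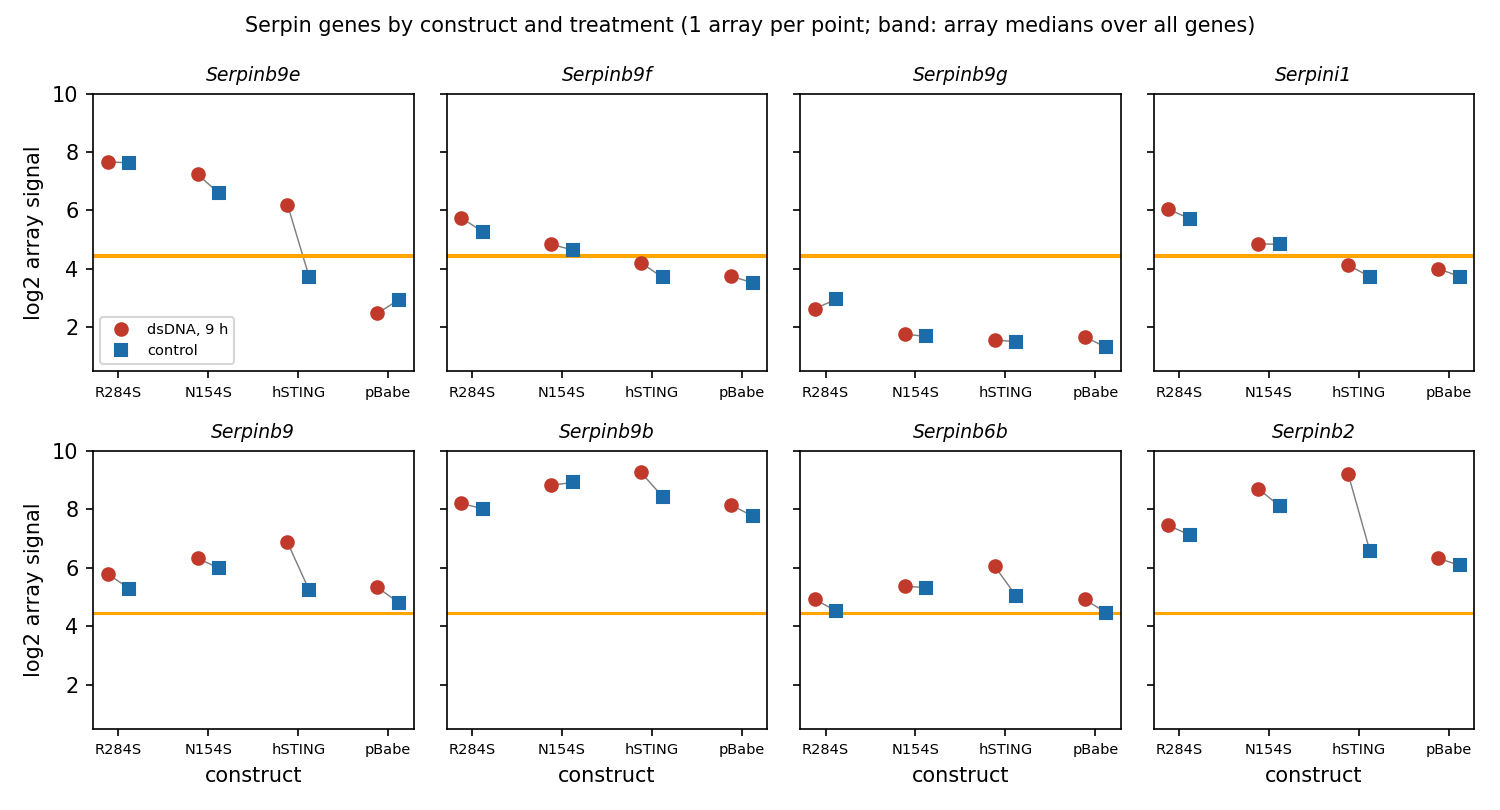
Log2 array signal (vertical axis) of 8 serpin genes by construct (horizontal axis), with dsDNA as red circles left of the control as blue squares, 1 array per point, and a thin horizontal band at the array medians over all genes, 4.42 to 4.47. In the upper row the R284S arrays are highest, as for Serpini1 at 6.04 and 5.72. In the lower row the hSTING array with dsDNA is highest, as for Serpinb2 at 9.21.

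Serpini1, the neuroserpin gene on chromosome 3, was graded across the constructs. It read 6.04 with dsDNA and 5.72 in control cells for R284S, 4.86 and 4.84 for N154S, 4.13 and 3.74 for hSTING, and 4.01 and 3.74 for pBabe. The R284S arrays lay above the N154S arrays, and these above the hSTING and pBabe arrays, which overlapped. It rose by 2.01 (SE 0.13, adjusted p = 0.00187) in R284S against pBabe, with a lower bound of 1.44, and by 0.98 (SE 0.13, adjusted p = 0.0265) in N154S, with a lower bound of 0.41. The N154S call was lost without the R284S pair of arrays (adjusted p = 0.0517). In hSTING cells the difference from pBabe was 0.06 (SE 0.13, 95% interval -0.26 to 0.38). Pdcd10, whose start faces that of Serpini1 on the opposite strand in RefSeq, read 6.44 to 6.90 on the 8 arrays and was 0.10 higher in R284S than in pBabe cells (SE 0.12, adjusted p = 0.792).

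Clade a was dim apart from Serpina3n, a secreted inhibitor related to human antichymotrypsin. Serpina3n read 4.76 and 4.64 in R284S, 4.36 and 4.72 in N154S, 6.33 and 6.14 in hSTING, and 7.17 and 6.94 in pBabe cells with dsDNA and without it. The mutant arrays lay below those of hSTING, and these below those of pBabe, with no overlap between these 3 sets. It fell by 2.36 on the log2 scale in R284S (SE 0.17, adjusted p = 0.00201) and by 2.52 in N154S (SE 0.17, adjusted p = 0.00401) against pBabe, and by 1.54 in R284S against hSTING (SE 0.17, adjusted p = 0.0155). All 3 calls held under the 7 alternatives that were run for each, at adjusted p values up to 0.0384. In hSTING cells it was -0.82 from pBabe (SE 0.17, adjusted p = 0.296), with a 95% interval of -1.22 to -0.42. The other 19 clade a genes read between 1.25 and 4.40, 0 of them reached the median on any array, and 0 passed in the fit. The antitrypsin genes Serpina1a to Serpina1e, near-identical copies in the mouse, were among these, at 1.25 to 4.07.

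The serpins with signals above the median in every line included 2 whose products fibroblasts are known to secrete or to need for collagen. Serpinh1, the collagen chaperone HSP47, read 9.24 with dsDNA and 9.44 in control cells for R284S, 9.42 and 9.57 for N154S, 9.72 and 9.85 for hSTING, and 9.83 and 9.86 for pBabe. Serpinf1, the secreted pigment epithelium-derived factor, read 7.81 and 7.82 in R284S, 7.83 and 8.11 in N154S, 8.15 and 8.40 in hSTING, and 8.35 and 8.5 in pBabe cells. For both genes the R284S and the N154S arrays lay below the hSTING and pBabe arrays. The differences of R284S from pBabe, -0.51 for Serpinh1 (SE 0.12, adjusted p = 0.0987) and -0.61 for Serpinf1 (SE 0.13, adjusted p = 0.0701), did not pass. With trend and robust variances they passed at adjusted p = 0.00953 and 0.0132, and with the filter on dim genes at 0.0343 and 0.0278.

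Serpinb6a, which encodes an intracellular inhibitor of cathepsin G, was nearly level. It read 6.31 and 6.26 in R284S, 6.06 and 6.23 in N154S, 6.18 and 6.21 in hSTING, and 6.29 and 6.36 in pBabe cells with dsDNA and without it. The R284S difference from pBabe was -0.04 (95% interval -0.32 to 0.24). Serpinb8 ranged from 4.14 to 4.97 and was -0.59 in R284S against pBabe (SE 0.19, adjusted p = 0.218). Of the remaining clades, antithrombin (Serpinc1), heparin cofactor II (Serpind1), antiplasmin (Serpinf2) and Serpini2 read between 1.98 and 3.75, below the array medians.

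The mutants were next set against hSTING. In R284S against hSTING cells 3 serpins rose and 1 fell in the fit, against 0.509% and 0.442% of all genes. Serpini1 rose by 1.94 (SE 0.13, adjusted p = 0.00506), Serpinb9f by 1.55 (SE 0.14, adjusted p = 0.00807) and Serpinb9g as above, and Serpina3n was the gene that fell. Serpinb9e was 2.67 higher (SE 0.60, adjusted p = 0.122). In N154S against hSTING cells 0 serpins passed in the limma fit, as did 0% of all genes, with 9 serpins (17.0%) and 8.9% of all genes at an unadjusted p under 0.05. Serpina3n then was at -1.70 (SE 0.17, adjusted p = 0.102) and Serpini1 at 0.92 (SE 0.13, adjusted p = 0.121), and both passed with trend and robust variances, at 0.011 and 0.0406.

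Pairs of arrays showed where dsDNA changed the standing of hSTING. In control cells R284S had 3 serpins 2-fold or more higher than hSTING and 1 lower, against 0.703% and 0.482% of all genes, the higher ones being Serpinb9e, Serpinb9f and Serpini1. With dsDNA the same 3 genes were higher in R284S and 5 were lower, against 0.956% and 1.74% of all genes. These 5 were Serpina3n, at -1.57, and Serpinb2, Serpinb6b, Serpinb9 and Serpinb9b, at -1.76, -1.14, -1.08 and -1.06. In N154S, 3 were higher and 1 lower than in hSTING control cells (0.532% and 0.221% of all genes), and 1 was higher and 1 lower with dsDNA (0.176% and 0.559%). These are differences between 2 arrays and have no replicate check.

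R284S and N154S cells were also compared with each other. In the limma fit 0 serpins passed, as against 0.00451% of all genes in each direction, and 8 serpins (15.1%) had an unadjusted p under 0.05, as had 7.07% of all genes. The largest differences among those 8 were 1.03 for Serpini1 (SE 0.13, adjusted p = 0.24), 1.07 for Serpinb9g (SE 0.17, adjusted p = 0.365) and 0.77 for Serpinb9f (SE 0.14, adjusted p = 0.383), each higher in R284S, and -0.76 for Serpinb9b (SE 0.21, adjusted p = 0.547). Serpina3n differed by 0.16, with a 95% interval of -0.24 to 0.56. In control cells Serpinb9e was 2-fold or more higher in R284S (0.162% of all genes were) and 0 serpins were lower (0.302%). With dsDNA Serpini1 was higher by 1.18 (0.135% of all genes) and Serpinb2 was at -1.25 (0.6% were lower).

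The effect of dsDNA was read within each construct. In hSTING cells 4 serpins were 2-fold or more higher with dsDNA and 0 lower, against 2.01% and 0.5% of all genes. All 4 were of clade b, namely Serpinb2 at 2.62, Serpinb9e at 2.46 (at least 1.75), Serpinb9 at 1.63 and Serpinb6b at 1.03, with Serpinb9b at 0.83. The clade b median was 0.41 in hSTING cells, and that of clade a was 0.14 and that of all genes -0.01. In R284S, N154S and pBabe cells 0 serpins were 2-fold or more higher or lower, while 0.0271%, 0.379% and 0.149% of all genes were higher and 0.0406%, 0.108% and 0.0361% lower. The clade b medians there were 0.05, 0.08 and 0.11.

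The same genes moved less in the other lines. Serpinb9e differed with dsDNA by 0.03 in R284S and 0.66 in N154S cells, where its control signals were 7.63 and 6.58, and by -0.47 in pBabe cells, where both signals were below the median. Serpinb9 differed by 0.50 in R284S, 0.35 in N154S and 0.53 in pBabe cells. Serpinb6b differed by 0.40, 0.05 and 0.45. Over the 4 constructs, 0 serpins passed for dsDNA in the limma fit and 0% of all genes did, with 13 serpins (24.5%) and 10.8% of all genes at an unadjusted p under 0.05. Serpinb9 was higher on all 4 constructs, by 0.75 on average (SE 0.21, adjusted p = 0.448). When the dsDNA effect in the 3 STING constructs was set against that in pBabe cells, 0 serpins and 0% of all genes passed, with 1 serpin (1.89%) and 3.6% of all genes at an unadjusted p under 0.05. This fit has 2 residual degrees of freedom and averages the 3 constructs, so the larger effect in hSTING than in the mutants has no test of its own.

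**Figure D4:**
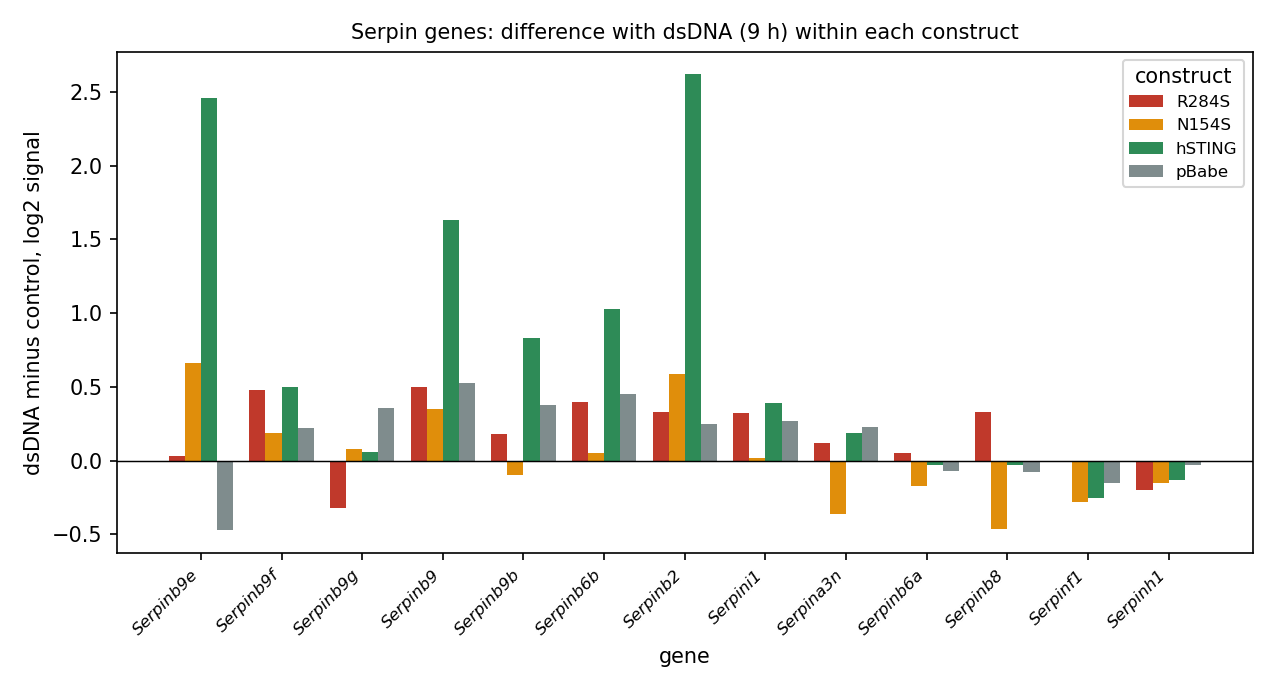
Difference in log2 signal between dsDNA and control (vertical axis) for 13 serpin genes (horizontal axis) within each construct, with bars from left to right for R284S, N154S, hSTING and pBabe. Each bar compares 2 arrays. The hSTING bars of Serpinb2 (2.62), Serpinb9e (2.46), Serpinb9 (1.63) and Serpinb6b (1.03) exceed 1, and the bars of the other constructs stay below 1.

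The interferon panel gives a scale for these differences. Of 11 measured genes such as Isg15, Ifit1 and Irf7, 9 were 2-fold or more higher in R284S, 10 in N154S and 9 in hSTING control cells against pBabe control cells, with median differences of 5.02, 5.75 and 4.02. In the same control cells Serpinb9e differed by 4.68 in R284S (at least 3.18) and 3.63 in N154S (at least 2.13), and read below the array median in hSTING. Serpinb2 differed by 1.04 in R284S, 2.03 in N154S and 0.51 in hSTING control cells.

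Partners of the serpins were read from lists of their target proteases and related factors. Of the 17 plasminogen and coagulation genes, Tfpi2, an inhibitor of plasmin and tissue factor pathway proteases, rose in both mutants, by 2.26 in R284S (SE 0.16, adjusted p = 0.00187) and by 1.59 in N154S (SE 0.16, adjusted p = 0.00895), and 0 fell. Its signals were 11.22 and 10.96 in R284S, 10.65 and 10.18 in N154S, 9.93 and 9.20 in hSTING, and 8.94 and 8.72 in pBabe cells with dsDNA and without it, with no overlap between the constructs. Among the targets of neuroserpin and PAI-2, tissue plasminogen activator (Plat) read 8.33 to 9.44 and urokinase (Plau) 8.28 to 9.49. The highest value of each was that of hSTING with dsDNA, but for Plat pBabe control cells were close, at 9.39. Plat read 8.78 and 8.75 in R284S and 8.80 and 8.33 in N154S cells, below both pBabe arrays (9.28 and 9.39). It did not pass in the fit.

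Granzymes, which include the Serpinb9 target granzyme B, were mostly dim. Granzyme B (Gzmb) read 2.12 to 2.70. Of 10 measured genes of the granzyme and perforin list 1, the granzyme D gene Gzmd, had a mean above the median of all genes. Gzmd fell in R284S by 2.89 (SE 0.21, adjusted p = 0.00201) and in N154S by 1.95 (SE 0.21, adjusted p = 0.0111) on the log2 scale against pBabe, and 0 genes of the list rose. It read 4.0 and 3.42 in R284S and 4.6 and 4.70 in N154S, against 5.95 and 6.18 in hSTING and 6.52 and 6.67 in pBabe cells. Both R284S signals lay below the array medians of 4.46, so the size of that fall is uncertain. Of the 16 cathepsin and neutrophil protease genes, Ctsc, which activates granule proteases, rose by 1.15 in R284S and 0.97 in N154S against pBabe, and 0 fell.

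Other protease inhibitors and matrix partners changed in part. Of 18 inhibitors outside the family, Timp3, which blocks metalloproteinases, fell in R284S by 1.46 (SE 0.15, adjusted p = 0.00633) and in N154S by 0.97 (SE 0.15, adjusted p = 0.0335), and Itih2 rose in R284S by 0.97. The pBabe signals of Itih2, 4.19 and 4.04, lay below the array medians, so the size of its rise is uncertain. Of the 15 genes for procollagen folding, in which Serpinh1 takes part, the prolyl hydroxylase subunit P4ha3 fell by 1.22 in R284S and by 0.79 in N154S, and the lysyl hydroxylase Plod2 rose by 0.99 in R284S. The list medians were -0.18 and -0.23, against -0.51 and -0.35 for Serpinh1. Antichymotrypsin is an acute phase protein. Of 17 genes on a list of acute phase genes and targets of the transcription factor STAT3, Lcn2 and Cp rose in R284S cells, by 1.18 and 1.58, and 0 fell. In N154S cells 0 rose and 0 fell against pBabe. Serpina3n fell in both mutants. Of 15 genes of the TGF-beta list Tgfb2 and Tgfbi fell in both mutants, and of 6 serpin clearance receptors 0 passed against pBabe in the limma fit.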

How the data were processed

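RNA (300 ng per sample) was labelled with the GeneChip WT PLUS kit for Affymetrix arrays, per the labels' protocols. Affymetrix Expression Console 1.3.1.187 was used, per the submitters' processing notes. The sources used here give neither algorithm nor build. The authors deposited log2 signals with 2 decimals. After sorting, no 2 arrays were more than 0.25 apart at any rank, so the values were close to one common distribution. Of 41345 probe sets, 23521 had 1 gene symbol in the platform annotation, 1814 had several and 16010 were not listed. Those with 1 symbol gave 22180 genes, by highest mean probe set. Another 2 probe sets that name a serpin beside a further symbol were left out. The limited number of arrays sets the precision.

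Construct and treatment were fitted as additive terms with limma 3.58.1 in R 4.3.3, moderated by eBayes (3 residual and 4.03 prior degrees of freedom), and called at 0.05 after Benjamini-Hochberg adjustment across all of the genes. In data simulated for R284S against pBabe over 22180 genes, the fit recovered 47 of 100 genes at a log2 change of 1, and 89 of 100 at 2, with 4 false calls. The simulated noise was independent between genes, with changes in R284S alone and no dsDNA effect. On the real arrays dsDNA effects differed between constructs in many genes, so these counts do not give the recovery or false calls of the fit here. Pairs of single arrays were compared without a test, and a fold of 2 counted when the brighter signal reached its array's median. A lower bound sets dim signals to that median. Members, lists and motifs were chosen with earlier results of these data known. Values on all arrays were printed for serpins past the threshold in a fit or pair, for those with a mean at or above the median and a range of 1 or more, and for Serpinf1, Serpinh1 and Serpinb6a. Serpinb8, Pdcd10 and Gzmb were named after their values were seen. Alternatives were other probe set summaries, a filter on dim genes, other variance and scaling settings, other fold rules, and leaving out each construct. Promoter windows were matched by symbol to RefSeq (GRCm38.p6).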

Additional observations from a re-analysis of the deposited data

How the results depend on the processing

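The additive fit compares treatments within constructs, and a block by replicate number could not be added because the labels give no such numbers. Leaving out each construct's pair of arrays gave 3 to 7 called serpins for N154S against pBabe (4 with all arrays; 7 without the hSTING pair, adding Serpinb2, Serpinb9 and Serpinb9b) and 3 to 6 for R284S against pBabe (5 with all arrays; 3 without the N154S pair), 3 to 4 for R284S against hSTING (4 with all arrays), and 0 throughout for the other comparisons that could be fitted. For N154S against hSTING, 0 became 1 when dim genes were filtered out and 2 under trend and robust variances. The shares of all genes called in these alternative fits are not given here. The counts therefore cannot be read as a result about serpins. With a 1.5-fold threshold the serpins apart became 2 for hSTING against pBabe and 8 for R284S against N154S in control cells, against 0 and 1, with 1.09% and 1.96% of all genes past it. With dsDNA they became 5 for N154S against hSTING and 4 for R284S against N154S, against 2 and 2 (3.76% and 3.04% of all genes), and for dsDNA against control in N154S cells 2, against 0 (2.4% of all genes). For R284S against N154S in control cells, the count of 1 became 2 with no requirement on brightness and 2 with quantile normalization. The other 128 recomputed counts stayed within 1.5 times the value reported. Clade medians were also recomputed over members with a mean at or above the median of all genes. By this, 14 of them moved by at least the median residual SD of the fit, 0.147, so the clade medians depend on the dim members. Of the 13 called differences of 5 serpins that were recomputed, 0 changed direction, but this is no support for them. Leaving out another construct, filtering genes or changing the variance settings cannot alter such a difference in this balanced design. The other settings moved it little. The partner genes and Pdcd10 were not recomputed. Most serpins were dim, where small changes cannot be seen on an array.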
